A study of Mus musculus with 2 samples.

Results

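Secreted Wnt antagonists are extracellular proteins that bind either Wnt ligands or the receptors that Wnt ligands use. The 8 genes described here, *Sfrp1*, *Sfrp2*, *Sfrp5*, *Frzb*, *Dkk1*, *Dkk2*, *Dkk3* and *Sostdc1*, were taken by name from the count matrices of both libraries, and are 8 of the 27998 gene identifiers listed there. Each matched 1 identifier. The rule goes by name, although the genes were chosen with earlier results of these data known. Cells came from the hand-dissected ocular area of C57BL/6J mouse embryos at the 26-somite stage (E9.25), and their RNA was read as 3′ tags on the 10x Chromium platform to ask which transcripts differ when *Mab21l1*, a gene required for the lens placode, is missing. The pair of eye areas of 1 wild-type embryo gave the library labelled WT, and that of 1 *Mab21l1*-null embryo, in which every cell carries the null allele, gave the library labelled KO. WT and KO below are these library labels. Neither embryo was treated. With 1 library per genotype there is no replicate check, so no p-value is given, and all intervals are exact 95% intervals that cover counting error only. The limit given for a count of 0 is 3 counts over the total, which also covers counting error only.

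Sfrp proteins and FRZB carry a cysteine-rich domain like that of the Frizzled receptors and bind Wnt ligands with it. DKK1 and DKK2 instead bind the co-receptors LRP5 and LRP6, with Kremen proteins as partners, whereas DKK3 is a divergent member of the Dickkopf family without that established action, and SOSTDC1 (also called Wise or ectodin) binds LRP co-receptors as well as BMP ligands. Wnt activity is kept low in the ectoderm that forms the lens, and Wnt signals favour pigment epithelium over neural retina in the optic vesicle, so antagonists of several kinds are known from both tissues.

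After filtering, 1680 cells of the library labelled WT (41880035 unique molecular identifiers, UMIs, with a median of 21037 per cell) and 2404 cells of the library labelled KO (52430844 UMIs, median 18135) were clustered without the 8 genes and without other Wnt pathway genes. Clusters were named from marker genes into 9 classes, which are listed in the plot of levels by class, and 547 cells in 4 clusters stayed unnamed. Ectoderm-like cells were split again into 29 WT and 31 KO cells with 10 of 12 lens placode markers raised, *Pax6*, *Six3*, *Pitx3* and *Prox1* among them (LP-like), and 29 WT and 17 KO cells with 5 of 12 surface ectoderm markers raised, *Fermt1*, *Trp63*, *Tfap2b*, *Perp* and *Krt14* (SE-like). *Foxe3* and *Id3* were not among the markers raised in LP-like cells. Over all kept cells, *Mab21l1* itself stood at 20.3 counts per 1000000 UMIs (CPM) in WT and at 32.5 CPM in KO, which goes against the KO label, so WT and KO mean no more than the label of a library throughout. Within LP-like cells it was 141 CPM in WT and 50.5 CPM in KO, and whether the counted 3′ end lies in the deleted part is not given in the sources used here. The libraries shared 15 barcodes, and leaving those cells out moved no ratio of the 8 genes beyond its counting interval.

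The antagonists differed in the classes where their levels were highest, although several of them were counted in the same classes. *Sfrp2* was the most abundant of the 8 in LP-like and optic vesicle-like cells, *Sfrp1* in pigment epithelium-like and mesenchyme-like cells, and *Sostdc1* in SE-like cells. *Dkk1* RNA was counted mainly in the optic vesicle-like and pigment epithelium-like classes, *Dkk2* and *Frzb* RNA in mesenchyme-like cells, and *Sfrp5* RNA was close to absent. Summed over the 8 genes, the level was highest in WT LP-like cells (1311 CPM) and was 684 CPM in KO LP-like cells. It ranged from 157 to 892 CPM in the SE-like, optic vesicle-like, pigment epithelium-like, neural ectoderm-like, mesenchyme-like and neural crest-like classes of WT, and was 39.3 CPM in endothelium-like and 13.9 CPM in erythrocyte-like cells. Counts of 3′ ends do not scale with transcript length, so levels of different genes are compared here as counted.

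**Figure D1:**
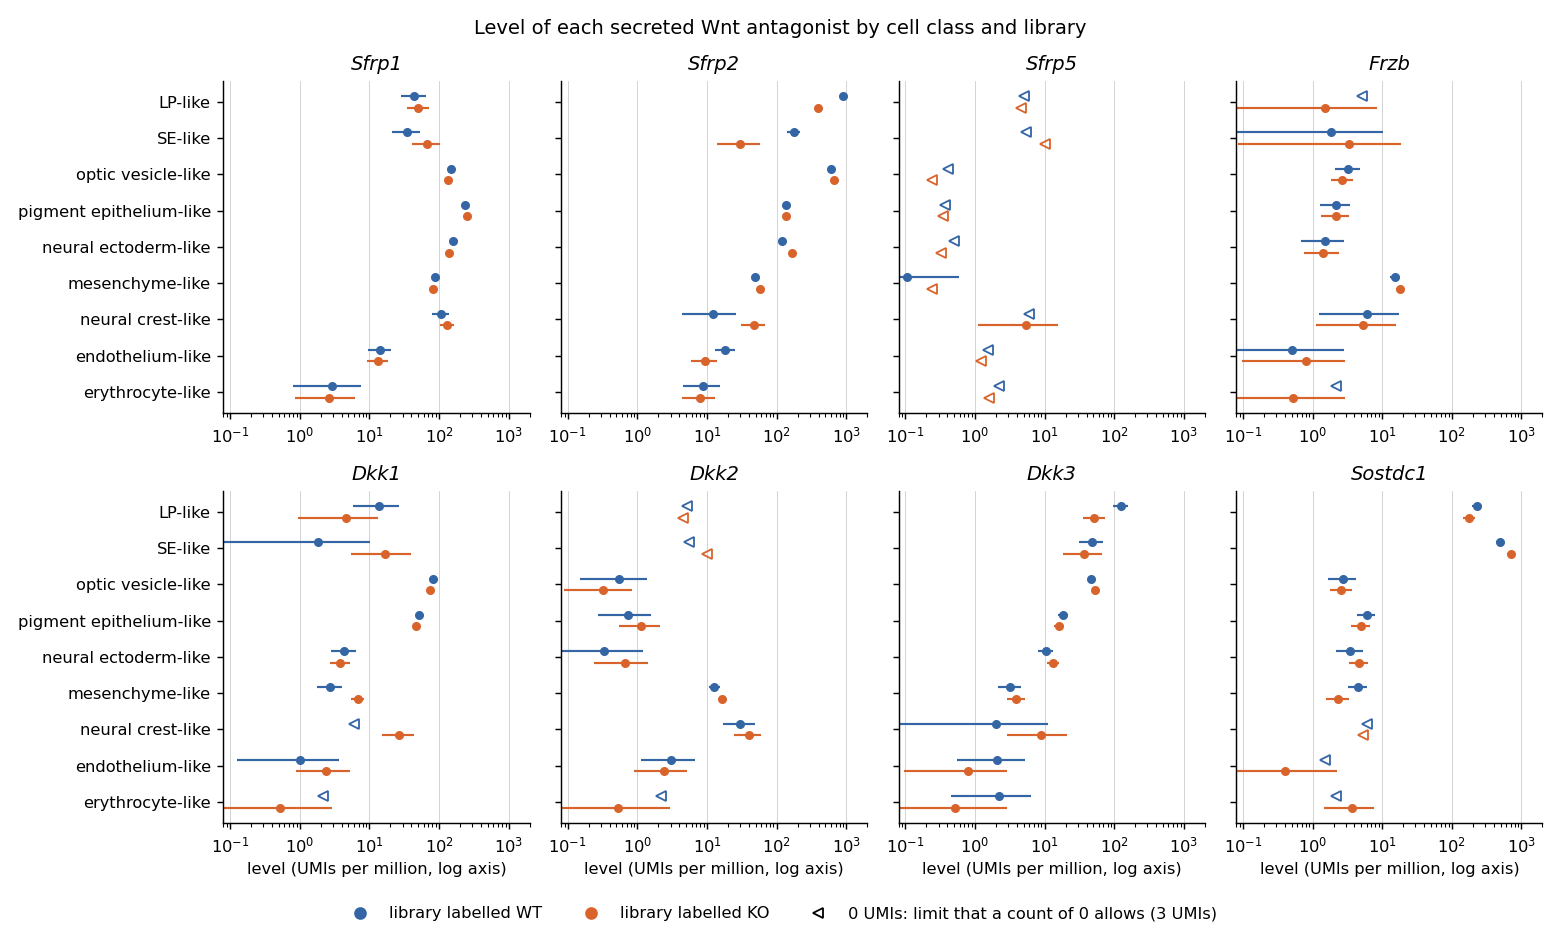
Level of each gene (CPM, log axis) in 9 cell classes of the library labelled WT (blue) and that labelled KO (orange), with exact 95% Poisson intervals, cut at the left edge where they run past it. Open triangles stand at 3 UMIs, the limit that a count of 0 allows. *Sfrp2* and *Dkk3* are the genes whose LP-like levels separate between the libraries, and *Sostdc1* is high in the 2 ectoderm classes and under 6 CPM elsewhere.

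*Sfrp1*, on chromosome 8 (GRCm38, chr8:23411502-23449632, plus strand, 3 exons), was the most widespread member. Its level was highest in pigment epithelium-like cells, at 236 CPM (1937 UMIs) in the library labelled WT and 254 CPM (2227 UMIs) in that labelled KO. Neural ectoderm-like cells followed with 159 and 140 CPM and optic vesicle-like cells with 147 and 136 CPM, and the intervals of these 2 classes overlapped in each library. The level in neural crest-like cells was 106 CPM in WT and 131 CPM in KO, and that in mesenchyme-like cells 88.5 and 82.6 CPM. LP-like cells held 44.1 and 50.5 CPM, and SE-like cells 34.5 and 67.0 CPM on only 19 and 20 UMIs, with overlapping intervals in each library. In pigment epithelium-like cells, 231 of 235 WT and 297 of 302 KO cells held at least 1 *Sfrp1* UMI, against 2 of 38 and 5 of 52 erythrocyte-like cells, a class that should lack the gene and was sequenced more deeply (medians of 34643 and 33622 UMIs, against 30631 and 25451). Erythrocyte-like cells therefore set the level of free RNA, which for *Sfrp1* was 2.92 CPM in WT and 2.63 CPM in KO.

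*Sfrp2*, on chromosome 3 (chr3:83766321-83774316, plus strand, 3 exons in its longest coding transcript), had the highest levels of all members. The library labelled WT counted 896 CPM in LP-like cells (interval 822 to 976, 528 UMIs) and 609 CPM in optic vesicle-like cells (4491 UMIs), a ratio of 1.47 (1.34 to 1.61). The order was the other way in the library labelled KO, with 657 CPM in optic vesicle-like cells (8102 UMIs) and 398 CPM in LP-like cells (351 to 449, 260 UMIs). Lower levels were counted in pigment epithelium-like cells (135 and 134 CPM), neural ectoderm-like cells (121 and 164 CPM) and mesenchyme-like cells (48.5 and 57.4 CPM). Optic vesicle-like cells alone held 50.8% of all *Sfrp2* UMIs of the library labelled WT and 63.2% of those labelled KO. Free RNA reached 8.76 and 7.88 CPM in erythrocyte-like cells, of which 6 of 38 and 12 of 52 held a UMI. The annotation places 347 exon bases of *Sfrp2* opposite *Gm26771* on the other strand, counted at 37.4 CPM (22 UMIs) in WT and 9.18 CPM (6 UMIs) in KO LP-like cells, and the strand setting of the counting is not given in the sources used here.

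The 250 bases before the *Sfrp2* start are shown because *Sfrp2* is the member with the largest difference in counts between WT and KO LP-like cells. The sequence comes from RefSeq (GRCm38.p6, chr3:83766071-83766320, plus strand) and was searched on both strands for CTTTGA, a core bound by TCF/LEF factors, and TAATTA, a core bound by many homeodomain proteins.
Sfrp2, before its start: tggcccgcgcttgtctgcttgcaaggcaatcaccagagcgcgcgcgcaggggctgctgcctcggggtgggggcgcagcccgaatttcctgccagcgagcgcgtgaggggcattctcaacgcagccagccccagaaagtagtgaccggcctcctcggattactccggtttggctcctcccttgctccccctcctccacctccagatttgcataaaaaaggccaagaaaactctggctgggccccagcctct
Neither motif was found in this window, which holds 16 CpG dinucleotides against a median of 6 over 32851 promoter windows of the same length, and has a G and C content of 63.6% against a median of 52.4%. Over all windows, 13.8% held CTTTGA and 4.84% held TAATTA on either strand. Windows were listed for 5 members, and those of *Sfrp2*, *Sfrp5*, *Frzb*, *Dkk1* and *Dkk2* held no TAATTA.

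*Frzb*, on chromosome 2 (chr2:80411970-80447625, minus strand, 6 exons), was counted mainly in mesenchyme-like cells. Mesenchyme-like cells held 15.2 CPM (144 UMIs) in the library labelled WT and 18.3 CPM (227 UMIs) in that labelled KO, which were 66.7% and 70.7% of all its UMIs. Each other class held at most 6.02 CPM. That highest value, in WT neural crest-like cells, rests on 3 UMIs, and its interval overlapped that of WT mesenchyme-like cells. *Sfrp5*, on chromosome 19 (chr19:42197971-42202252, minus strand, 3 exons), was counted once in the library labelled WT, in a mesenchyme-like cell, and 3 times in that labelled KO, in 3 neural crest-like cells. No *Sfrp5* UMI was found in 215 WT optic vesicle-like cells, where the limit is 0.407 CPM, and none in 29 WT LP-like cells, where it is 5.09 CPM.

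*Dkk1*, on chromosome 19 (chr19:30545863-30549665, minus strand, 4 exons), encodes a secreted antagonist needed for head formation. Its level was 82.5 CPM in WT and 73.2 CPM in KO optic vesicle-like cells (608 and 903 UMIs), and 51.3 and 47.2 CPM in pigment epithelium-like cells (421 and 414 UMIs). The classes differed by 1.61-fold in WT (1.42 to 1.83) and 1.55-fold in KO (1.38 to 1.75). LP-like cells held 8 UMIs in WT, 6 of them in 1 cell, and 3 in KO. Neural crest-like cells held 0 UMIs in WT and 15 in KO, of which 14 lay in a single cell, so that without it the KO level was 1.90 CPM. Its promoter window held 2 CTTTGA cores, shown because *Dkk1* differs most between the dorsal and ventral optic vesicle clusters described below. They lie 174 and 117 bases before the RefSeq start, on the minus strand of GRCm38.p6 at chr19:30549653-30549682 and chr19:30549596-30549625. Each is printed with 12 bases on each side and the core in capitals. The GENCODE gene given above starts at chr19:30549665, inside this window. By that annotation the stretch 117 bases before the RefSeq start lies within the gene, and the one at 174 bases spans the gene start.
Dkk1, reverse orientation: gaggggagagtgTCAAAGtcctccctgctt
Dkk1, same orientation: ctcctcccaaagCTTTGAaatcccatcccg
Of the 5 windows, that of *Frzb* also held a match, which lies within its GENCODE gene.

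*Dkk2*, on chromosome 3 (chr3:132085292-132180304, plus strand, 4 exons), was counted at 30.1 CPM in WT and 39.5 CPM in KO neural crest-like cells, on 15 and 22 UMIs, and at 12.8 and 16.3 CPM in mesenchyme-like cells, on 121 and 203 UMIs. Neural crest-like cells stood above mesenchyme-like cells by 2.36-fold in WT (1.28 to 4.04) and 2.42-fold in KO (1.48 to 3.76). No *Dkk2* UMI was found in LP-like or SE-like cells of either library. *Dkk3*, on chromosome 7 (chr7:112116017-112159057, minus strand, 8 exons), followed the distribution of *Sfrp2* at lower levels. The library labelled WT held 124 CPM in LP-like cells (73 UMIs), 47.2 CPM in SE-like cells (26 UMIs) and 46.8 CPM in optic vesicle-like cells (345 UMIs). In the library labelled KO these classes held 52.0, 36.9 and 52.3 CPM (34, 11 and 645 UMIs), with overlapping intervals. Pigment epithelium-like cells held 18.5 and 16.2 CPM, neural ectoderm-like cells 10.5 and 13.3 CPM, and mesenchyme-like cells 3.17 and 3.94 CPM.

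*Sostdc1*, on chromosome 12 (chr12:36314139-36318452, plus strand, 2 exons), marked the ectoderm. SE-like cells held 490 CPM in WT (270 UMIs) and 704 CPM in KO (210 UMIs), and LP-like cells 233 CPM (137 UMIs) and 178 CPM (116 UMIs). No other class reached 6 CPM. LP-like and SE-like cells were 2.72% of the UMIs of the library labelled WT but held 74.1% of its *Sostdc1* UMIs, and 1.82% and 66.9% of those labelled KO.

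Across the 9 classes of both libraries, 18 points in all that share 2 libraries and their depth, the pattern of *Dkk3* was the nearest to that of *Sfrp2* among the members (Pearson's r of log2(CPM + 10), 0.876), and that of *Dkk2* was the farthest (−0.364). Among 10857 genes with at least 200 UMIs, the 3 with the pattern most like *Sfrp2* were *Mab21l1* (r = 0.937), *Slit2* and *Rnf113a1*. For *Dkk3* they were *Hmx1* (0.971), *Mgarp* and *Abhd11os*, for *Dkk1* they were *Wfdc1* (0.918), *Aldh1a1* and *Tbx20*, and for *Sostdc1* they were the keratins *Krt7* (0.991) and *Krt8* with *Mapk13*. *Frzb* went with *Gng8* (0.946), *Tmem119* and *Ednra*, *Dkk2* with *E130114P18Rik* (0.972), *Kank4* and *Igdcc4*, and *Sfrp1* with *Ndufa13* (0.967), *Ldhb* and *Jam3*. With 1 CPM added in place of 10, *Mab21l1* and *Hmx1* stayed first for *Sfrp2* and *Dkk3*, whereas the first gene changed for *Sfrp1*, *Frzb*, *Dkk1*, *Dkk2* and *Sostdc1*.

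**Figure D2:**
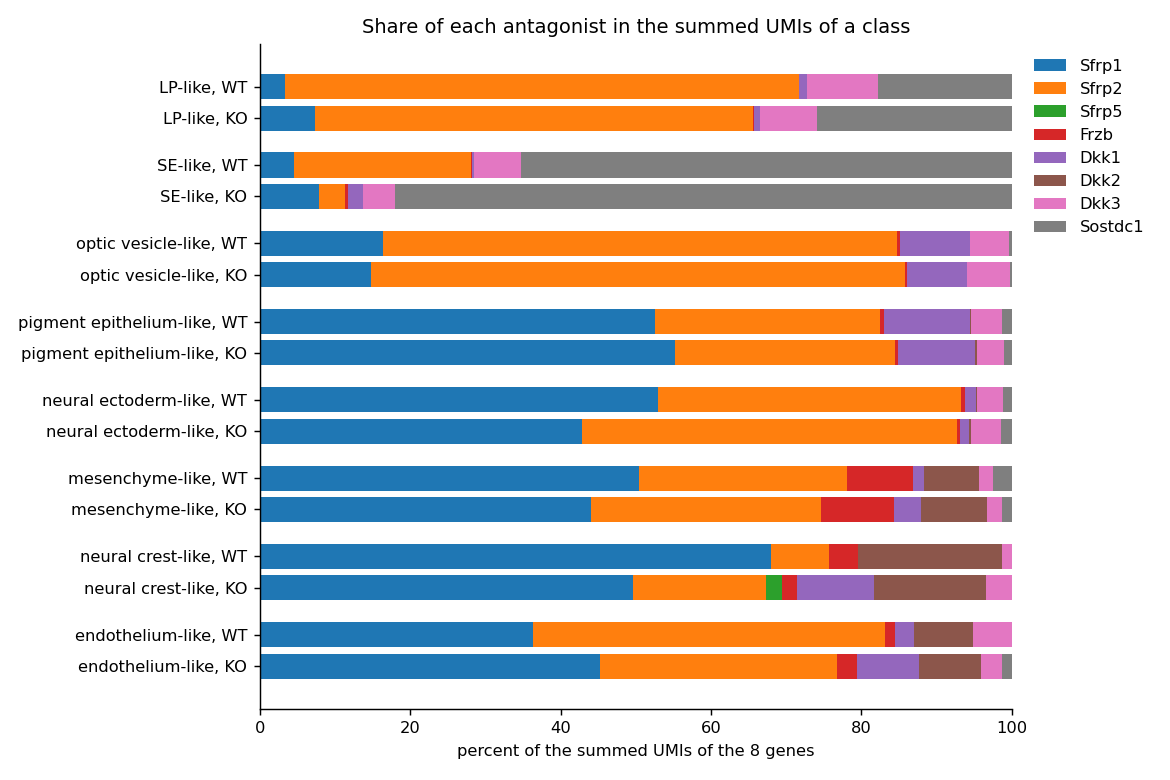
Percent of the summed UMIs of the 8 genes that each gene supplied, with 1 bar per cell class and library. *Sfrp2* supplied 68.4% in WT and 58.2% in KO LP-like cells, and *Sostdc1* 65.2% and 82.0% in SE-like cells.

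The comparison of WT with KO LP-like cells is the one closest to the purpose of the study. *Sfrp2* and *Dkk3* were both lower in the library labelled KO, *Sfrp1* was at a similar count, and *Sostdc1* was lower by less than 1.5-fold. *Sfrp2* and *Dkk3* are among the genes that the study chose on these same libraries, so their direction is not independent evidence. Per cell, *Sfrp2* ranged from 0 to 22.2 UMIs per 10000 UMIs of the cell in WT (median 8.53, n = 29 cells) and from 0 to 8.04 in KO (median 3.17, n = 31 cells). The 2 sets of cells overlapped, but the highest KO cell lay below the WT median. The ratio of the summed levels, KO over WT, was 0.444 (0.381 to 0.516). It was 0.330 when each cell was weighted equally, and 0.433 without the cell with most *Sfrp2* UMIs in each library.

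The number of LP-like cells with *Sfrp2* differed as well. A UMI of *Sfrp2* was found in 28 of 29 WT cells (96.6%, exact binomial interval 82.2% to 99.9%), and in 22 of 31 KO cells (71.0%, 52.0% to 85.8%), at similar depth (medians of 18185 and 17552 UMIs per cell). With every cell thinned to an equal 6000 UMIs, 28 of 29 and 18 of 31 cells kept a UMI, against 2 of 38 and 4 of 52 erythrocyte-like cells. *Dkk3* ranged from 0 to 3.55 UMIs per 10000 in WT LP-like cells (median 1.04) and from 0 to 2.35 in KO cells (median 0.306), and these ranges overlapped. Its summed ratio was 0.420 (0.271 to 0.639). A UMI of *Dkk3* was found in 24 of 29 WT and 19 of 31 KO LP-like cells, and after thinning in 14 and 8, against 0 of 38 and 0 of 52 thinned erythrocyte-like cells, where the limit on cells with a UMI at that depth is 7.89% and 5.77%. In WT, thinned cells held *Sfrp2* and *Dkk3* together in 14 cases, *Sfrp2* without *Dkk3* in 14 and *Dkk3* without *Sfrp2* in 0. In KO these numbers were 6, 12 and 2, and 11 cells held neither.

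Of the 8 members, 4 had at least 30 UMIs over the LP-like cells of both libraries, and 2 of these 4 were at least 1.5-fold lower in the library labelled KO and 0 were at least 1.5-fold higher. Among all 4998 genes with as many UMIs, 9.88% were that much lower and 8.4% that much higher, which fell to 3.75% and 3.29% among genes with at least 100 UMIs, a group that *Sfrp2*, *Dkk3* and *Sostdc1* belong to. The median log2 ratio of the 4 members was −0.78 against −0.02 over all genes. *Sfrp1* had a ratio of 1.14 (0.664 to 1.99), so its counts do not separate the libraries in either direction. *Dkk1*, *Frzb*, *Dkk2* and *Sfrp5* had under 30 UMIs. More KO than WT LP-like cells were scored as G2M, 19 of 31 against 9 of 29. Without cells scored as G2M the ratio was 0.397 for *Sfrp2* and 0.365 for *Dkk3*.

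*Sostdc1* gave no stable direction in LP-like cells. Its summed ratio was 0.763 (0.591 to 0.985), but 48 of the 137 WT UMIs lay in 1 cell, and without the top cell of each library the levels were 163 and 158 CPM. Its per-cell median was 0.846 UMIs per 10000 in WT and 1.08 in KO, and the ratio was 1.13 with each cell weighted equally and 1.18 with the ectoderm split on 5 principal components. A UMI was found in 20 of 29 WT and 31 of 31 KO cells, and after thinning in 12 and 16.

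**Figure D3:**
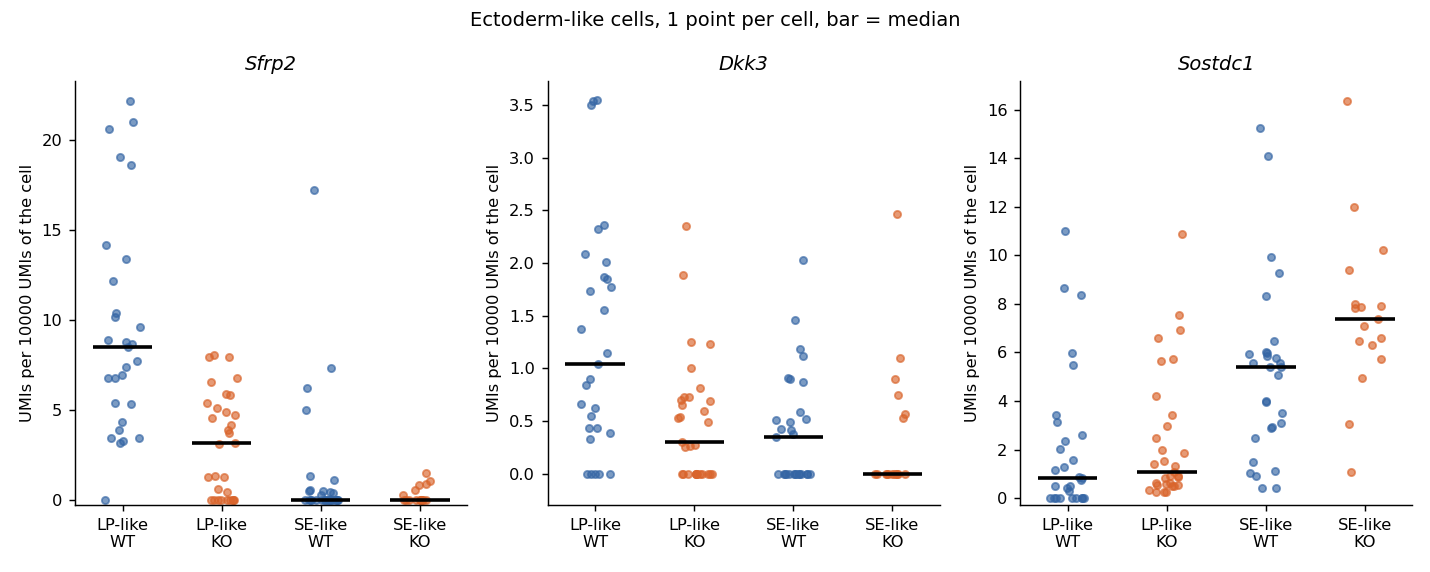
*Sfrp2*, *Dkk3* and *Sostdc1* in each ectoderm-like cell (UMIs per 10000 UMIs of the cell, 1 point per cell) by class and library, with the median as a bar. *Sfrp2* medians are 8.53 and 3.17 in WT and KO LP-like cells and 0 in SE-like cells of both libraries, where 4 WT cells stand apart above 3.

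Within each library, LP-like and SE-like cells differed in which antagonist they held. *Sfrp2* was 5.10-fold higher in LP-like cells in WT (4.10 to 6.39) and 13.2-fold higher in KO (6.84 to 29.2). *Sostdc1* was lower in LP-like than in SE-like cells, at 0.475 in WT (0.384 to 0.586) and 0.252 in KO (0.199 to 0.318). *Dkk3* was 2.63-fold higher in LP-like cells in WT (1.66 to 4.29), whereas its ratio in KO was 1.41 (0.698 to 3.09), which includes no difference. *Sfrp1* had ratios of 1.28 (0.682 to 2.45) and 0.753 (0.420 to 1.39). In WT, 2 of the 4 members with at least 30 UMIs were at least 1.5-fold higher and 1 was lower, where 7.9% and 11.9% of all genes were. In KO, 1 was higher and 1 lower, where 9.11% and 13.4% of all genes were. Thinned ectoderm-like cells of the library labelled WT held both *Sfrp2* and *Sostdc1* in 16 of 58 cases, *Sfrp2* alone in 19, *Sostdc1* alone in 20 and neither in 3, and those of the library labelled KO in 11 of 48, 12, 21 and 4.

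Between the libraries, SE-like cells held less *Sfrp2* and more *Sostdc1* in KO, and neither direction was stable. *Sfrp2* had 97 UMIs in WT and 9 in KO SE-like cells, a ratio of 0.171 (0.0761 to 0.339). However, 86 of the 97 WT UMIs lay in 4 cells, each of which also held a UMI of *Pax6*, and the WT median was 0. When ectoderm-like cells were split by a *Pax6* UMI the ratio was 2.32, with a marker gate on each cell it was 2.10, and without cell cycle regression in the clustering it was 1.14. *Sostdc1* ranged from 0.406 to 15.2 UMIs per 10000 in WT SE-like cells (median 5.38) and from 1.06 to 16.4 in KO (median 7.38), and the cells overlapped. Its summed ratio was 1.44 (1.19 to 1.73), which was 0.885 with the *Pax6* split and 0.890 with the marker gate. At the 1.5-fold limit, 1 of 4 members with at least 30 UMIs was lower, *Sfrp2*, and 1 was higher, *Sfrp1* at 1.95 (0.985 to 3.85), against 9.56% and 8.21% of all genes.

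Taking LP-like and SE-like cells together removes the dependence on that split. Over all 58 WT and 48 KO ectoderm-like cells, *Sfrp2* was at 548 and 283 CPM, a ratio of 0.516 (0.445 to 0.596), and *Dkk3* at 86.8 and 47.3 CPM, a ratio of 0.545 (0.374 to 0.782). *Sostdc1* was at 357 and 343 CPM, a ratio of 0.960 (0.827 to 1.11), and *Sfrp1* at 39.5 and 55.7 CPM, a ratio of 1.41 (0.930 to 2.15). Here 2 of the 4 members with enough UMIs were at least 1.5-fold lower and 0 higher, against 8.66% and 5.14% of all genes. LP-like cells made up 29 of 58 WT and 31 of 48 KO ectoderm-like cells.

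In optic vesicle-like, pigment epithelium-like and neural ectoderm-like cells no member with at least 30 UMIs passed 1.5-fold between the libraries. In optic vesicle-like cells 6 members had at least 30 UMIs and 0 passed 1.5-fold in either direction, where 2.37% of all genes were lower and 2.33% higher. *Sfrp2* had a ratio of 1.08 (1.04 to 1.12), *Dkk3* of 1.12 (0.979 to 1.28), *Sfrp1* of 0.928 (0.859 to 1.002) and *Dkk1* of 0.887 (0.800 to 0.985) in these cells. The *Sfrp2* interval lies wholly above 1, on the other side of 1 from that in LP-like cells. In pigment epithelium-like cells 0 of 6 members passed the limit (2.19% of all genes lower, 3.5% higher), with *Sfrp2* at 0.995 (0.916 to 1.08) and *Sfrp1* at 1.08 (1.012 to 1.14). In neural ectoderm-like cells 0 of 5 did (2.9% lower, 3.3% higher). *Sfrp2* was higher there in KO by 1.35-fold (1.24 to 1.48) and *Sfrp1* lower at 0.882 (0.811 to 0.960). The *Sfrp2* ratio in that class was 1.07 with the marker gate and 1.13 at the finer resolution.

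**Figure D4:**
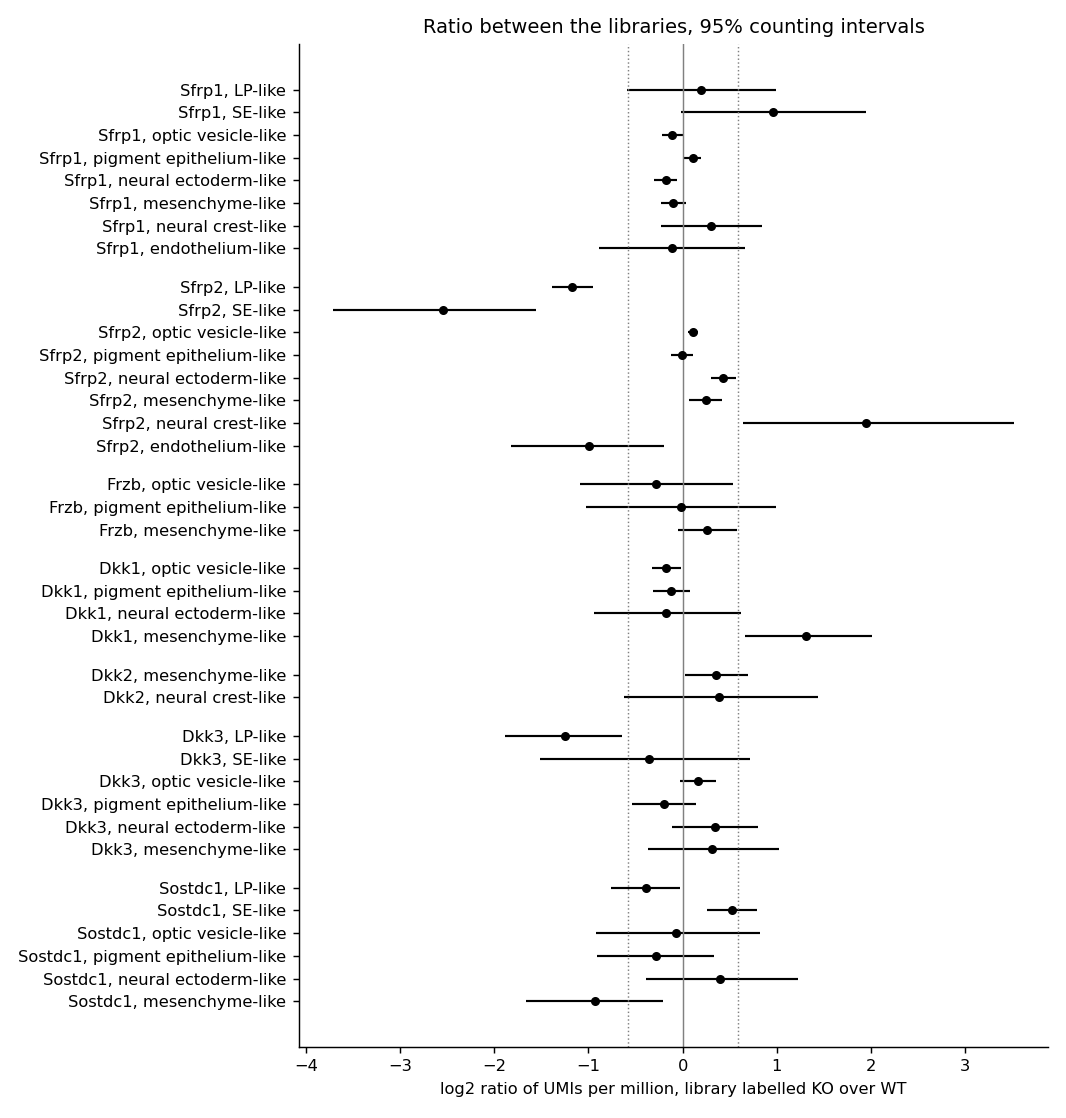
Ratio of levels, library labelled KO over that labelled WT, on a log2 scale with exact 95% intervals, for each gene and class with at least 30 UMIs over both libraries. Dotted lines mark 1.5-fold. *Sfrp2* and *Dkk3* in LP-like cells lie wholly beyond the lower line, and ratios in optic vesicle-like and pigment epithelium-like cells lie near 0.

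Mesenchyme-like cells had 7 members with at least 30 UMIs, of which 1 was at least 1.5-fold lower in KO, *Sostdc1*, and 1 higher, *Dkk1*, where 2.85% and 2.69% of all genes were. *Dkk1* was at 2.75 CPM in WT (26 UMIs) and 6.84 CPM in KO (85 UMIs), a ratio of 2.49 (1.59 to 4.03). Of the 85 KO UMIs, 61 lay in 80 cells of a cluster with high *Lhx8* and *Msx1* at the finer resolution, to which the library labelled WT gave 4 cells with 0 *Dkk1* UMIs. Without that cluster the *Dkk1* ratio was 0.771. The same cluster had the highest *Frzb* level of any mesenchyme-like cluster in KO, 52.6 CPM, and without it the *Frzb* ratio was 0.958, against 1.2 (0.970 to 1.49) with it. How much of each mesenchyme was dissected and genotype cannot be told apart with 1 embryo each. *Sostdc1* was at 4.44 and 2.33 CPM (42 and 29 UMIs, 12 of the WT UMIs in 1 cell). *Dkk2* had a ratio of 1.28 (1.02 to 1.61) and *Sfrp2* of 1.19 (1.05 to 1.34). At the main resolution a cluster with high *Cxcl12* and *Col3a1* held most of the WT cells (301 of 495) but fewer of the KO cells (341 of 771).

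In neural crest-like cells 1 of 3 members with at least 30 UMIs passed the limit, *Sfrp2*, which was higher in KO, where 5.7% of all genes were lower and 11.8% higher. Its 6 UMIs in WT and 26 in KO gave a ratio of 3.87 (1.56 to 11.5), and 1.34 without cell cycle regression in the clustering. The same cells held 8 optic vesicle markers at a summed 12 UMIs in WT (24.1 CPM, 2 of the 8 at 0) and 115 UMIs in KO (206 CPM, none at 0), against 30.7 and 36.8 CPM in erythrocyte-like and 1862 and 1790 CPM in optic vesicle-like cells. *Pax6*, for one, had 2 UMIs in WT and 17 in KO. Their part in the result was not tested. In endothelium-like cells 1 of 2 did, *Sfrp2*, with 36 and 23 UMIs and a ratio of 0.501 (0.284 to 0.869), where 5.69% of all genes were lower and 4.48% higher. There 21 of the 36 WT UMIs lay in 1 cell, and without the top cell of each library the levels were 7.89 and 8.21 CPM, beside 3.76 and 6.52 CPM in erythrocyte-like cells without theirs.

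At a finer clustering resolution (1.2, against 0.6) antagonist levels also differed within the neural classes. The cluster with high *Tbx5* and *Aldh1a1*, genes of the dorsal optic vesicle, held 174 CPM of *Dkk1* in WT and 189 CPM in KO, and *Dkk1* was among its leading genes although it had been left out of the clustering. The *Vax2*-high ventral cluster held 27.0 and 33.5 CPM, so *Dkk1* was 6.46-fold higher on the dorsal side in WT (5.37 to 7.83) and 5.64-fold in KO (4.82 to 6.60). Against the *Pmel*-high pigment epithelium cluster, at 60.5 and 48.7 CPM, it was 2.88-fold higher in WT (2.49 to 3.34) and 3.88-fold in KO (3.36 to 4.48). *Sfrp2* was at 464 and 475 CPM in the *Tbx5*-high cluster, 249 and 293 CPM in the *Vax2*-high cluster and 97.6 and 111 CPM in the *Pmel*-high cluster. The *Tbx5*-high over *Vax2*-high ratio of *Sfrp2* was 1.87 in WT (1.73 to 2.02) and 1.62 in KO (1.51 to 1.74), smaller than that of *Dkk1* in each library.

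*Sfrp1* ran the other way, with 260 and 281 CPM in the *Pmel*-high cluster and 148 and 131 CPM in the *Tbx5*-high cluster, a ratio of 1.76 in WT (1.57 to 1.97) and 2.15 in KO (1.93 to 2.41). *Dkk3* was also higher on the dorsal than on the ventral side, with 68.7 and 63.1 CPM in the *Tbx5*-high cluster. This was 3.90-fold above the *Vax2*-high cluster in WT (3.04 to 5.04) and 2.72-fold in KO (2.19 to 3.38). The *Fezf2*-high neural ectoderm cluster held little *Dkk1* (3.16 and 3.28 CPM) or *Dkk3* (5.69 and 5.05 CPM), with *Sfrp1* at 175 CPM in WT and 135 CPM in KO. Its *Sfrp1* ratio, KO over WT, was 0.773 (0.685 to 0.872). A cluster with high *Fgf8*, which stayed unnamed, held 140 CPM of *Sfrp1* in WT and 147 CPM in KO. The ratio there was 1.04 (0.90 to 1.21), which includes no difference.

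**Figure D5:**
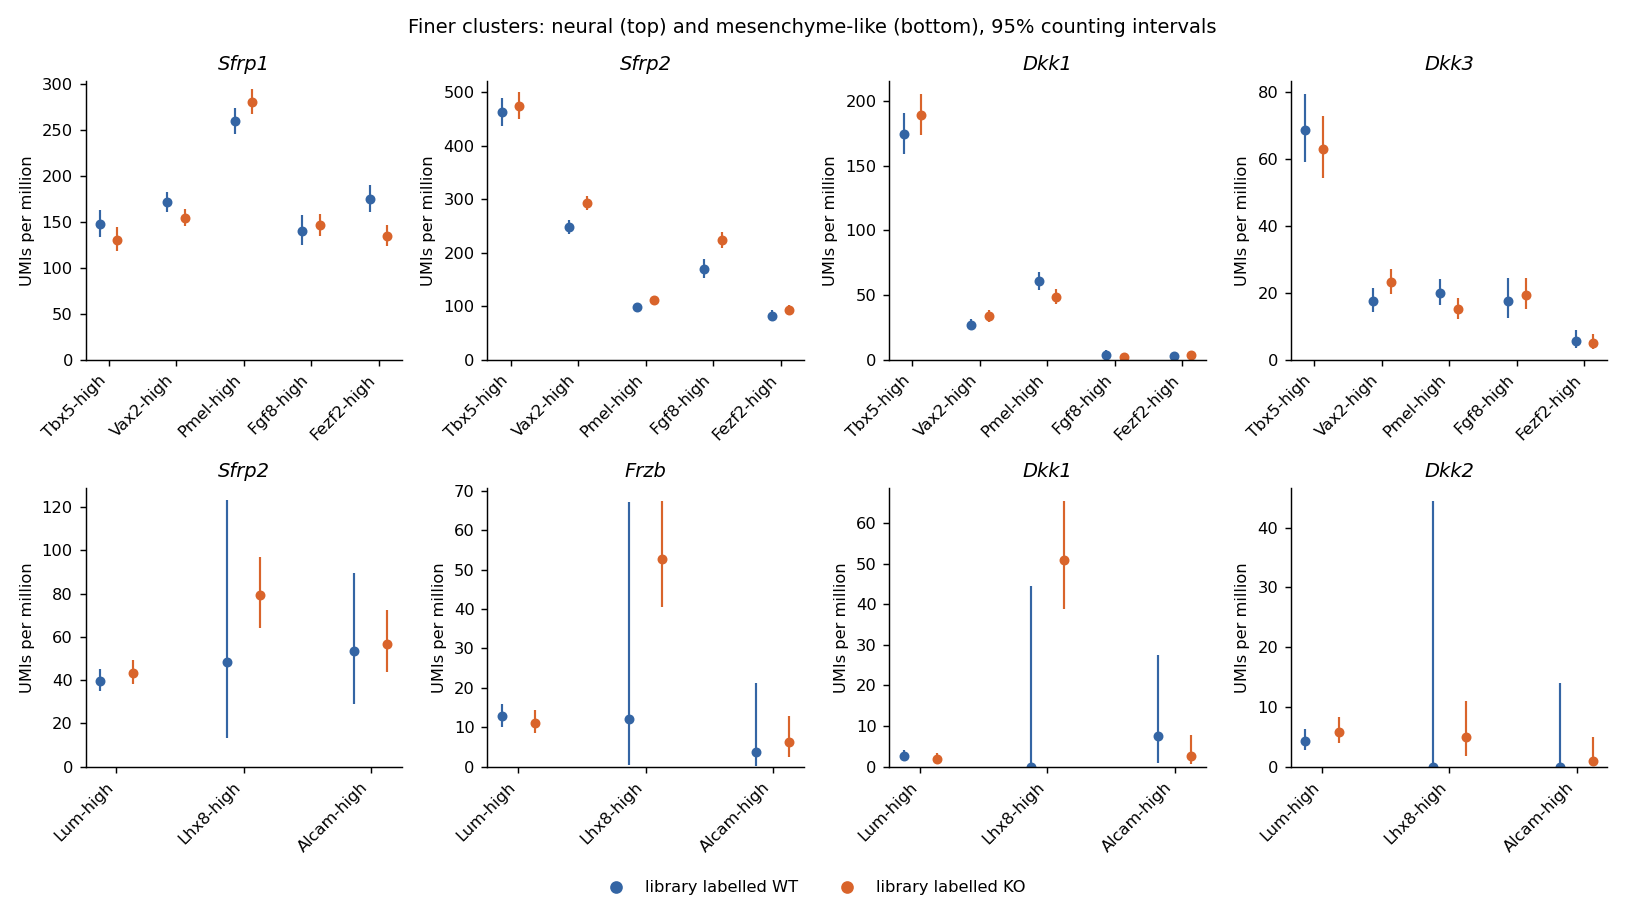
Levels (CPM, exact 95% Poisson intervals) in a selection of clusters at the finer resolution, named by a leading gene, for neural clusters (top) and mesenchyme-like clusters (bottom) in the library labelled WT (blue) and that labelled KO (orange). Among the clusters drawn, *Dkk1* is highest in the *Tbx5*-high and *Sfrp1* in the *Pmel*-high cluster in both libraries, and *Dkk1* in the *Lhx8*-high cluster comes from KO cells, with only 4 WT cells there.

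Within the mesenchyme, the cluster with high *Cxcl12* and *Lum* held 12.8 CPM of *Frzb* in WT and 11.1 CPM in KO, and 4.32 and 5.83 CPM of *Dkk2*. After thinning, mesenchyme-like cells held both *Frzb* and *Dkk2* in 1 of 495 cases in WT and 8 of 771 in KO, *Frzb* alone in 29 and 66, and *Dkk2* alone in 19 and 45. Whether they occur together less or more often than apart was not tested.

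The other genes of the Wnt pathway gave few counts in LP-like cells. Of 19 Wnt ligands, 3 had at least 30 UMIs there, of which *Wnt2* was lower in KO (39.1 and 13.8 CPM, ratio 0.353, 0.144 to 0.791), *Wnt6* higher (13.6 and 49.0 CPM, ratio 3.61, 1.63 to 9.06) and *Wnt5b* at 0.949, where 9.88% of all genes with as many UMIs were at least 1.5-fold lower and 8.4% higher. Of 16 receptors, 4 had enough UMIs and 1 passed 1.5-fold, the co-receptor *Lrp6*, to which DKK1 binds, at 47.5 and 24.5 CPM (ratio 0.515, 0.260 to 0.985). Neither Kremen gene reached 30 UMIs. Of 14 cytoplasmic and nuclear components, 10 had enough UMIs and 2 were lower, the co-repressor *Tle3* at 0.592 (0.324 to 1.06) and the kinase *Gsk3a* at 0.664 (0.308 to 1.40), with intervals that include 1. *Ctnnb1*, which encodes β-catenin, had a ratio of 0.746 (0.581 to 0.957). Of 14 feedback targets of the pathway, 2 could be read, *Ccnd1* at 0.747 (0.550 to 1.011) and *Bambi* at 0.687 (0.484 to 0.971), and 0 passed 1.5-fold. *Ccnd1* is also among the genes that the study chose on these same libraries, so its direction is not independent evidence. Among other extracellular inhibitors, 0 of 2 passed, *Igfbp4* at 1.32 and *Gpc3* at 1.03. *Wls*, needed for Wnt secretion, was at 0.901 and the R-spondin receptor *Lgr4* at 0.944. The medians of the log2 ratio were −0.08 for ligands, −0.02 for receptors, −0.25 for cytoplasmic and nuclear components and −0.48 for feedback targets, beside −0.02 over all genes. In SE-like cells, where *Sostdc1* was highest, the ligands *Wnt6* (200 and 278 CPM) and *Wnt4* (160 and 104 CPM) were the most abundant.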

How the data were processed

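Cell Ranger was used by the authors to align reads to mm10 (GRCm38), to count UMIs and to join the libraries (its aggr step may thin the reads of 1 of them). The deposited values are whole-number UMI counts, not scaled per cell. Cells outside 1500 to 8000 genes or above 5% mitochondrial UMIs were removed (the study's printed limit was read as a fraction, and *Sostdc1* in SE-like cells moves with it), and the others were scaled to 10000 UMIs and clustered in Seurat 5.3.0 (R 4.3.3) on 1523 variable genes, 40 principal components and a resolution of 0.6, after regression of S and G2M scores and without the 8 genes and Wnt pathway genes. Clusters were named from at least 3 markers raised at least 2-fold. This naming rule was chosen with the clusters in view. The ectoderm-like cluster was split at a resolution of 0.4 on 10 principal components, also without genes the study names. Scrublet called 9 doublets in WT and 7 in KO, at an expected rate of 0.05. Those that passed the cell filters, 9 and 6, were kept.

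Counts were summed per class and library with Python 3.11.15 and scipy 1.17.1. Levels have exact Poisson, ratios exact conditional binomial and shares exact binomial 95% intervals. Scripts were checked on simulated counts. A gene entered a comparison with at least 30 UMIs over both groups, and counted as lower or higher past 1.5-fold, with no test. Named genes were all 8 members, up to 4 genes of each pathway list by size of ratio in LP-like cells, up to 2 by level, the 3 genes nearest each member's pattern, leading genes of clusters, and *Mab21l1*. *Ctnnb1* and *Gm26771* fall outside this rule and were named after their values were seen. The members and lists were chosen with earlier results of these data known. Annotation is GENCODE on GRCm38. Alternatives covered filters, resolution, components, marker gate, scaling, free RNA, doublets, minimum UMIs and fold. Results for some finer clusters are not reported here.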

Additional observations from a re-analysis of the deposited data

Results flagged for a closer look

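Ratios between the libraries, KO over WT, whose counting interval lies wholly on 1 side of 1 were singled out where another class of the same gene had its interval wholly on the other side. The differences between classes were not tested, and every ratio compares 2 libraries with counting error alone. *Sfrp2* was lower in KO in LP-like cells (0.444), SE-like cells (0.171) and endothelium-like cells (0.501), and higher in optic vesicle-like cells (1.08), mesenchyme-like cells (1.19), neural ectoderm-like cells (1.35) and neural crest-like cells (3.87). The counts behind these differ greatly, from 8102 KO and 4491 WT UMIs in optic vesicle-like cells to 26 and 6 in neural crest-like cells. LP-like cells held 260 and 528, and endothelium-like cells 23 and 36, where 21 of the WT UMIs lay in 1 cell. SE-like cells held 9 and 97, where 86 of the WT UMIs lay in 4 cells. Over the alternatives the SE-like ratio ran from 0.126 to 2.32, so its direction was not stable. The neural ectoderm-like ratio was 1.13 (0.964 to 1.33) at the finer resolution. In each mesenchyme-like cluster of the main resolution, taken alone, the *Sfrp2* interval included 1. The neural crest-like ratio was smaller without cell cycle regression in the clustering. Neural crest-like cells also held optic vesicle markers at a summed 24.1 CPM in WT and 206 CPM in KO, whose part was not tested.

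*Dkk1* was lower in optic vesicle-like cells (0.887, on 903 and 608 UMIs) and higher in mesenchyme-like cells (2.49), the latter through the *Lhx8*-high cluster. *Sostdc1* was lower in LP-like cells (0.763) and mesenchyme-like cells (0.526), with 48 of 137 and 12 of 42 WT UMIs in 1 cell, and higher in SE-like cells (1.44). *Sfrp1* was lower in neural ectoderm-like cells (0.882) and higher in pigment epithelium-like cells (1.08), on 957 to 2227 UMIs per class and library.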

How the results depend on the processing

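No paired analysis was possible because each genotype has 1 library, and for the same reason no library could be left out. Of 666 alternative values for 47 results, 597 stayed within the main counting interval (percents of genes, within 1.5-fold), 62 moved beyond it and 7 moved from a main ratio past 1.5-fold to the other side of 1. Among the first 2 groups, a further 44 values, from main ratios within 1.5-fold, also lay on the other side of 1. *Sfrp2* in LP-like cells stayed between 0.330 (mean over cells, each weighted equally) and 0.511, and *Dkk3* between 0.347 and 0.467. *Sostdc1* in LP-like cells (0.763) did not keep its direction, at 1.13 with the mean over cells, 1.08 with the per-cell marker gate, 1.18 with 5 principal components in the ectoderm split and 0.520 without cells scored as G2M. In SE-like cells *Sostdc1* (1.44) was 1.14 with no mitochondrial limit, 0.885 with a split by a *Pax6* UMI and 0.890 with the gate, and *Sfrp2* (0.171) was 1.14 with no cell cycle regression, 2.32 with the *Pax6* split and 2.10 with the gate. LP-like over SE-like in WT, *Sfrp2* (5.10) was 37.8 with no cell cycle regression, 36.5 with the *Pax6* split, 28.7 with the gate, 6.69 with the mean over cells, 3.07 without G2M cells and 7.68 without the top cell of each library. *Sostdc1* (0.475) was 0.283 with no mitochondrial limit, 0.256 with 5 components and 0.354 without the top cells, and in KO (0.252) it was 0.583 with the *Pax6* split, 0.671 with the gate and 0.197 without G2M cells. In endothelium-like cells *Sfrp2* (0.501) was 1.28 with the gate, 2.27 with doublets removed and 1.04 without the top cells, and in mesenchyme-like cells *Dkk1* (2.49) was 0.771 without the *Lhx8*-high cluster. Of genes in LP-like cells, 16% were lower and 13.6% higher with a minimum of 10 UMIs, 3.75% and 3.29% with 100, and 2.52% and 1.9% at 2-fold. Leaving out G2M cells, top cells, shared barcodes, the *Lhx8*-high cluster or a *Notch2*-high cluster was chosen after seeing the data. Why values moved was not tested. With 29 to 31 LP-like cells per library, members under 30 UMIs could not be compared there.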

Other observations

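Clusters that stayed unnamed at the finer resolution also held *Sfrp2* RNA. A cluster led by *Dapl1*, *Ckb* and *Rax* had 241 CPM in WT and 255 CPM in KO, and a cluster led by *Rpgrip1* and *Notch2*, with 155 WT and 52 KO cells, had 274 and 348 CPM. A cluster led by *Gm13075*, *Six2* and *Tbx18* had 328 and 309 CPM beside 20.9 CPM of *Dkk1* in WT. A cluster led by *Cp*, *Zic1* and *Fgf8*, which at the main resolution was not separate, had 169 and 223 CPM, and a cluster led by *Etv2* and *Crym* had 26.9 and 32.1 CPM.

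UMIs of *Sfrp2* and *Dkk1* were counted in some of the same optic vesicle-like cells, and whether they meet more often than independent genes would was not tested. After thinning to 6000 UMIs, 48 of 215 WT and 95 of 430 KO cells held both *Sfrp2* and *Dkk1*, 145 and 295 held *Sfrp2* alone, 11 and 15 *Dkk1* alone, and 11 and 25 neither. No thinned erythrocyte-like cell, of 38 and 52, held both, and 2 and 4 held *Sfrp2* alone. *Sfrp1* and *Sfrp2* were held together by 107 of 215 and 215 of 430 of these cells, and by 61 of 223 WT and 131 of 416 KO neural ectoderm-like cells.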
